A study of Homo sapiens with 10 samples.

Results

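The genes described here encode the proteins of the mitochondrial respiratory chain and the ATP synthase that are made from nuclear DNA. They were chosen from the deposited table by symbol alone. A gene was taken when its symbol began with NDUFA, NDUFB, NDUFC, NDUFS or NDUFV and a digit, with COX and a digit from 4 to 8, with UQCR or with ATP5, or was SDHA, SDHB, SDHC or SDHD. Symbols ending in P and digits, the usual form for pseudogenes, were left out. The rule gave 85 of 20591 genes. Of these, 77 encode subunits, with 36 in complex I, 4 in complex II, 8 in complex III, 12 in complex IV and 17 in complex V. Another 4 are coding genes with a related role (UQCRHL, COX7A2L, NDUFA4L2 and ATP5IF1), and 4 are noncoding RNAs named after a neighbouring member (NDUFV2-AS1, UQCRFS1-DT, NDUFA6-DT and NDUFB2-AS1).

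Bulk RNA sequencing of 10 libraries of human blood cancer lines was deposited, with 1 library per group. The mixture libraries, numbered 1 to 6, are labelled as mixes of all of the lines, in ratios that the labels do not state. The 4 pure libraries are HL60, a promyelocytic leukaemia line, K562, a line with erythroid features from the blast phase of chronic myeloid leukaemia, SUDHL4, a B cell lymphoma line of germinal-centre type, and THP1, a monocytic leukaemia line. All libraries are labelled wild type, untreated and day 0, and either a stranded total RNA kit or a stranded mRNA kit was used, without a statement of which library had which. The lines serve as known sources in a study of how bulk profiles can be split into their cell types.

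The respiratory chain sits in the inner mitochondrial membrane. Complex I takes electrons from NADH and complex II takes them from succinate. Complex III passes them to cytochrome c, complex IV passes them on to oxygen, and complex V uses the resulting proton gradient to make ATP. Complexes I, III, IV and V also hold subunits encoded by mitochondrial DNA, which were not analysed here, and nuclear subunits such as CYC1 and NDUFAB1 fall outside the symbol rule. The values below therefore cover the nuclear subunits that the rule takes, not whole complexes. Transcripts of these genes are abundant in most cell types, and a few subunits have forms restricted to muscle or testis.

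Values are normalised CPM, deposited levels in reads per 1000000 as rescaled by the authors between libraries. Comparisons between genes use the level per kilobase of transcript. The libraries held 24985570 to 36607612 reads, and the members took 1.23% (THP1) to 1.71% (mixture 2) of a library. Most listed marker genes were highest in their line, with CSF1R at 256 in THP1, MS4A1 at 2669 in SUDHL4, GATA1 at 236 in K562 and MPO at 15646 in HL60. FCN1 of the THP1 markers had 0 reads in THP1, and EPOR of the K562 markers was at 7.53 in K562 and 8.33 in HL60. CD33 of the HL60 markers was at 89.7 in HL60 and 70.2 in THP1. Mixture 3 is labelled as holding all 4 lines, but had 0 reads of MS4A1, and signature genes assigned 0% of its RNA to SUDHL4. In mixture 4 they assigned 0.0217% to K562, and in mixture 5 they assigned 0.286% to HL60. With no replicates there is no test between libraries. Counting intervals (exact, 95%) cover counting error only, and in bulk RNA a lower RNA amount per cell cannot be told apart from fewer cells expressing a gene. Levels were also rescaled by total reads, by the median ratio over genes, by 11 housekeeping genes and by the median of the members, and results that turn with the scaling are given with those values.

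Nearly all members were expressed in every line. Of the 77 subunit genes, 73 reached 5 normalised CPM in each of the 4 pure lines. The median member that reached 5 in a pure line had 158 normalised CPM per kilobase, against 9.30 for all 11565 such genes with a known length, at the 95.4th percentile of these. The members also ranged less between lines than other genes. On the log2(value + 1) scale, their median range from the lowest to the highest line was 1.05 over 77 members, against 1.69 over all 11717 genes at 5 or more. On this scale 3 members, or 3.90%, spanned 4-fold or more, namely NDUFA4L2 (a log2 range of 2.88), NDUFA5 (2.23) and NDUFS5 (2.11), against 42.05% of all genes. NDUFA9 lay just below on that scale (1.97), while its untransformed levels differed 4.43-fold. Among genes at 50 or more, again on the log2(value + 1) scale, 2.86% of 70 members spanned 4-fold, against 34.5% of 5772 genes. The flattest member was ATP5ME, a small membrane subunit of the ATP synthase, at 108 (HL60), 113 (K562), 116 (SUDHL4) and 115 (THP1).

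**Figure D1:**
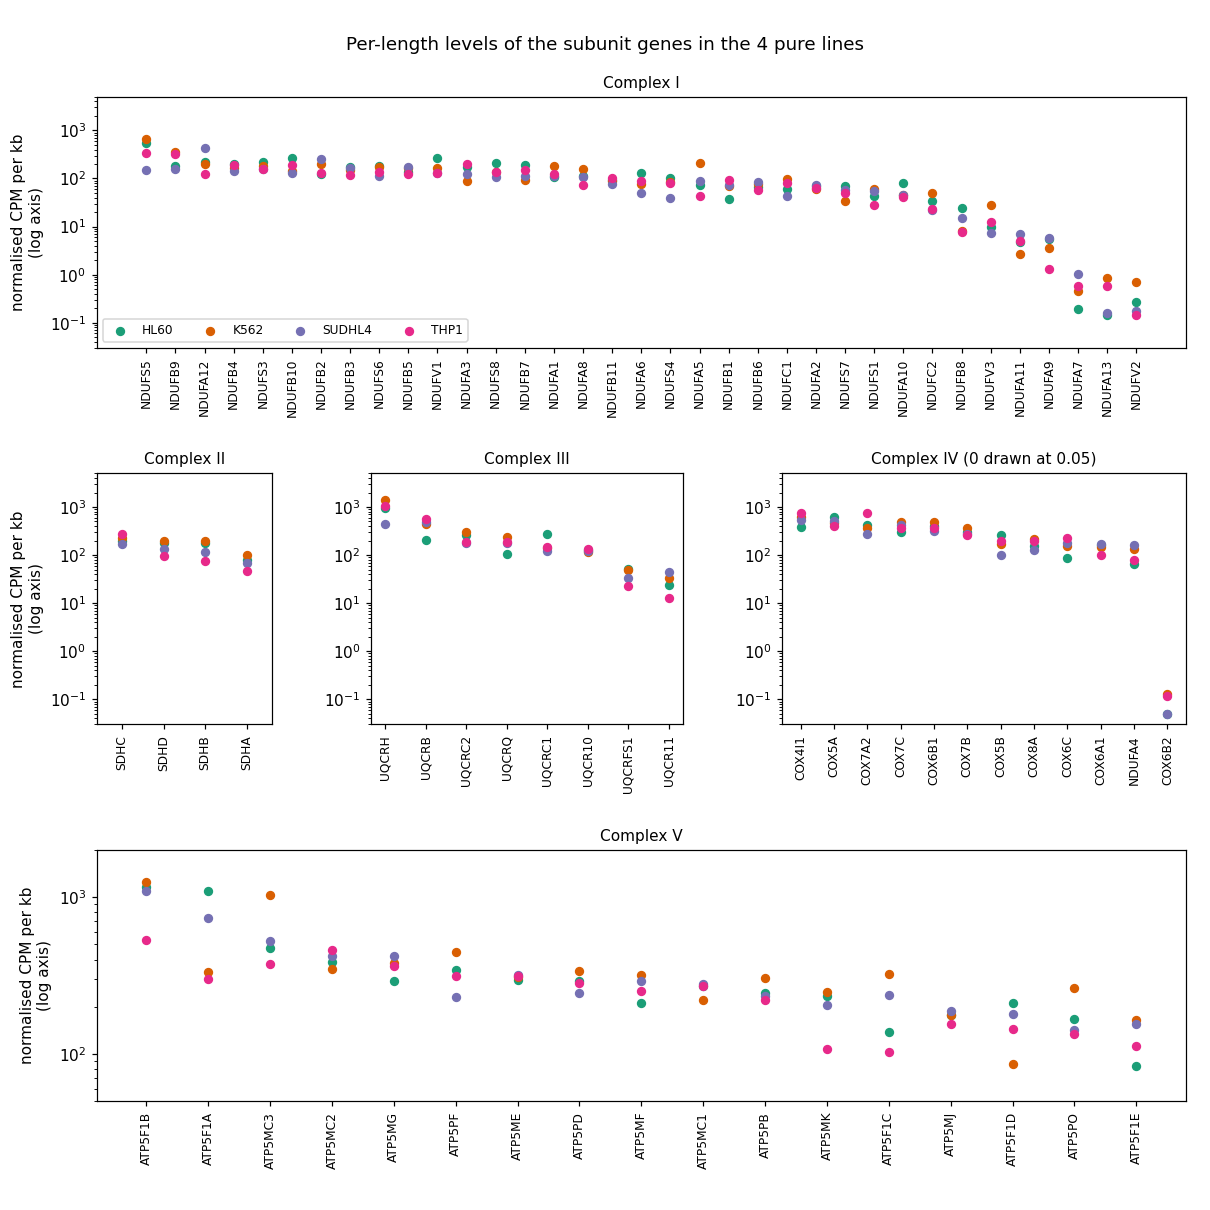
Level per kilobase (normalised CPM per kb, log axis) of 76 of the 77 subunit genes in the 4 pure lines, 1 point per library, with genes ordered within a complex by their median. Most genes lie within a narrow band across lines, while NDUFA7, NDUFA13, NDUFV2 and COX6B2 lie near 0.

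In complex I, the highest per-length medians over the pure lines were those of NDUFS5 (443 per kilobase) and NDUFB9 (249), both accessory subunits. The core subunits carry the electron path from NADH to ubiquinone. NDUFV1, which binds the NADH side of the complex, was at 399 normalised CPM in HL60, 251 in K562, 197 in SUDHL4 and 200.1 in THP1, highest in HL60. NDUFS1, the largest iron-sulphur subunit, was at 103, 145, 133 and 68.5 in HL60, K562, SUDHL4 and THP1, lowest in THP1. The core genes NDUFS3 (92.2 to 128), NDUFS7 (34.7 to 71.3) and NDUFS8 (61.0 to 120.1) were each highest in HL60. Of these 5 core genes, NDUFS1 was highest in K562 and the others in HL60.

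In complex II, the succinate dehydrogenase, SDHA and SDHB form the catalytic part and SDHC and SDHD the membrane anchor. THP1 was the lowest line for 3 of the 4 genes. SDHA was at 96.8 in THP1, against 164 in HL60, 209.5 in K562 and 146 in SUDHL4. SDHB was at 87.3 in THP1, against 210.5, 226 and 135 in HL60, K562 and SUDHL4. SDHD was at 81.5 in THP1, against 153, 169 and 116 in the same lines. SDHC went the other way, with 126 in THP1 against 90.7, 102 and 77.3. None of the 4 met the 2-fold rule used below. The count of 3 of 4 held with total-read, median-ratio and housekeeping scaling, and the median log2 difference of the 4 genes between THP1 and the mean of the other lines was −0.82 as deposited and −0.59 with housekeeping scaling. In the mixtures the 4 genes spanned less, from 118 to 166 for SDHA and from 97.6 to 108 for SDHC.

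Complex III was led by UQCRH, the hinge protein that holds cytochrome c1 (993 per kilobase), and UQCRB, a ubiquinone-binding accessory subunit (471), while UQCR11 was lowest (28.4). UQCRC1, a core subunit, was at 533 in HL60, against 273 in K562, 238 in SUDHL4 and 297 in THP1. UQCRFS1, the Rieske iron-sulphur protein, was at 80.9 in THP1, against 175, 167 and 114 in HL60, K562 and SUDHL4. In complex IV, COX4I1 (579 per kilobase) and COX5A (488), which surround the catalytic core, were highest. COX7A2, the common form of subunit 7A, was at 353 in THP1 (95% counting interval 347 to 359), against 203 in HL60, 176 in K562 and 134 in SUDHL4. It fell short of 2-fold over HL60 as deposited, with a log2 margin of 0.80, and passed it with 3 of 5 scalings. NDUFA4, once assigned to complex I and now known as a complex IV subunit, was at 347 in SUDHL4, 279.6 in K562, 167 in THP1 and 142 in HL60.

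Complex V held the member with the highest per-length median. ATP5F1B (chr12:56638175-56646068 in GRCh38, minus strand), the catalytic beta subunit of the F1 head, had 1133 per kilobase at the median over the lines, and ATP5F1A (chr18:46080248-46104334, minus strand), the alpha subunit, had 538. The lowest per kilobase was ATP5F1E, the epsilon subunit of the central stalk, at 134, with a length taken as 1878 bases. That rank depends on the length, since its undivided level in mixture 1 was 226, against 80.5 for ATP5MF. ATP5F1C, the gamma subunit of that stalk, was at 364 in K562, 267 in SUDHL4, 155 in HL60 and 116 in THP1. ATP5F1D, the delta subunit, went the other way in K562, with 60.3 there, while SUDHL4 had 126, THP1 102 and HL60 149. ATP5IF1, which inhibits the enzyme when it runs backwards, was at 164 in K562, 133 in SUDHL4, 77.4 in HL60 and 54.0 in THP1.

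The alpha and beta genes encode subunits that alternate in equal number in the F1 head, yet their levels ran apart between lines. ATP5F1A was at 704 in K562 and 635 in THP1, against 2313 in HL60 and 1556 in SUDHL4. ATP5F1B was at 976 in THP1, against 2288 in K562, 2149 in HL60 and 2017 in SUDHL4. The ratio of ATP5F1A to ATP5F1B was thus 0.307 in K562, while it was 1.08 in HL60, 0.772 in SUDHL4 and 0.650 in THP1, a ratio within a library that no scaling alters. In mixtures 1 to 6 the ratio was 0.719, 0.797, 0.621, 0.790, 0.420 and 0.514. The lowest of these belonged to mixtures 5 and 6, in which 53.7% and 53.1% of the RNA was assigned to K562 from signature genes that hold no member. The pair was singled out after its values were seen. The 2 transcripts have GC contents of 47.6% (ATP5F1A) and 50.2% (ATP5F1B), and the part of library composition in the ratio was not tested.

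The membrane ring of the ATP synthase is built from a c subunit that 3 genes encode with the same mature protein, and their balance differed between lines. ATP5MC3 took 68.6% of the reads of the 3 genes in K562 (exact 95% interval 68.2% to 69.0%), while its share was 46.4% in HL60, 47.4% in SUDHL4 and 38.0% in THP1. ATP5MC3 was at 871 in K562, against 397, 444 and 316 in HL60, SUDHL4 and THP1. The level of ATP5MC1 was nearly even, at 118 in K562 against 147, 151 and 146. In THP1 it was ATP5MC2 that led, with 44.5% of the reads (43.9% to 45.1%), against 36.4% in HL60, 22.1% in K562 and 36.4% in SUDHL4.

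**Figure D2:**
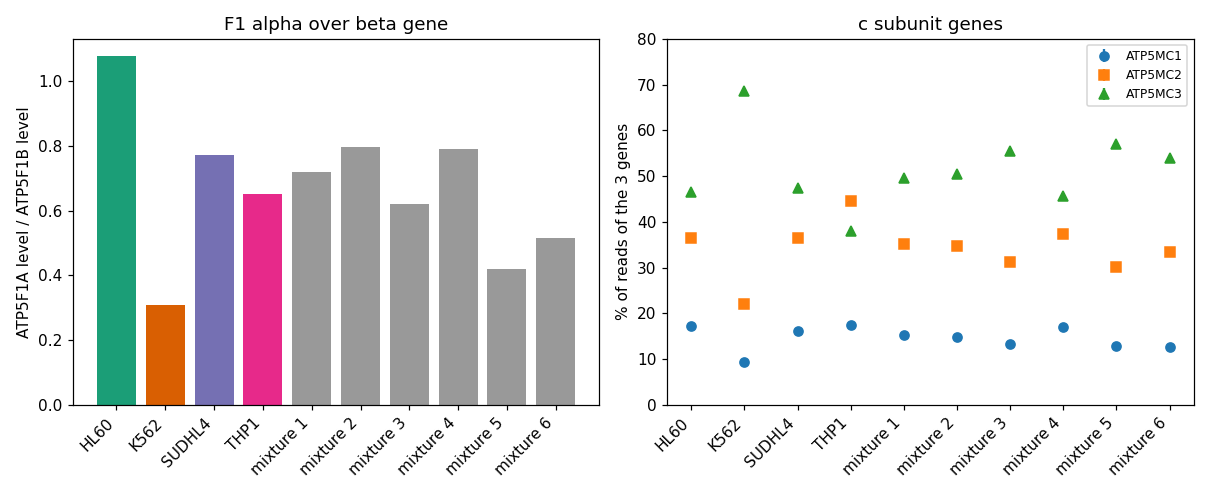
Left, ratio of the ATP5F1A level to the ATP5F1B level in each of the 10 libraries (bars from 0). Right, percentage of the reads of ATP5MC1, ATP5MC2 and ATP5MC3 taken by each gene, with exact 95% intervals that are smaller than the symbols; K562 stands apart in both, with a ratio of 0.307 and 68.6% of reads from ATP5MC3.

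Promoter sequences from RefSeq (GRCh38.p14, from 250 bases before to 50 after each start) were matched for 66 of the coding members, with 79 starts. Motifs of factors known to bind promoters of respiratory genes were searched on both strands. The NRF1 motif (GCATGCG) was in 19.0% of the 79 member promoters, against 3.91% of all 35116 promoters and 5.86% of the promoters of genes at 5 or more in a pure line. The ETS motif bound by GABPA (CCGGAAG) was in 27.8% of member promoters, against 10.3% of all and 17.5% of those of expressed genes. The YY1 motif (AAGATGG) was in 24.1%, against 5.84% and 7.39%. The TATA box (TATAAA) was in 7.59%, against 11.5% and 6.21%. Of the 66 matched members, 40 had at least 1 of the NRF1, ETS and YY1 motifs. Of the 8 members that differed 2-fold between lines by the rule below, 4 were matched, and NDUFA5, NDUFA9 and UQCRH had such a motif while NDUFV3 had none. Promoters of 3 members with unequal levels between lines are shown with the motif letters in capitals, picked after the search from those that hold a motif. ATP5F1A (chr18:46098247-46098546, minus strand) has the ETS motif at 48 bases before the start, on the opposite strand, and its other listed start has none of the motifs. NDUFA5 (chr7:123557769-123558068, minus strand) has an NRF1 motif that reads on both strands and a YY1 motif at 133 bases before the start, while its other listed starts have none. ATP5F1C (chr10:7787927-7788226, plus strand) has an NRF1 motif that also reads on both strands.
ATP5F1A: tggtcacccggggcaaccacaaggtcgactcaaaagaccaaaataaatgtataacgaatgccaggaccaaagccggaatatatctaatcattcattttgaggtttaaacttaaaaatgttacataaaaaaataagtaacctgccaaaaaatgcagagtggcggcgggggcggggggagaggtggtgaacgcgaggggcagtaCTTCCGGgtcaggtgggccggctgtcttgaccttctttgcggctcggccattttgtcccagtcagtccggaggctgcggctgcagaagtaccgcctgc
NDUFA5: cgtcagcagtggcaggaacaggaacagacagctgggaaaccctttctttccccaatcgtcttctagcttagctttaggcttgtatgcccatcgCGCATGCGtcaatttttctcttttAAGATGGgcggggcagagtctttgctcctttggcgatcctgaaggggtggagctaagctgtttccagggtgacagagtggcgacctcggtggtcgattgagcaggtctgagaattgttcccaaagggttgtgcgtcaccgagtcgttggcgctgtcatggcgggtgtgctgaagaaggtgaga
ATP5F1C: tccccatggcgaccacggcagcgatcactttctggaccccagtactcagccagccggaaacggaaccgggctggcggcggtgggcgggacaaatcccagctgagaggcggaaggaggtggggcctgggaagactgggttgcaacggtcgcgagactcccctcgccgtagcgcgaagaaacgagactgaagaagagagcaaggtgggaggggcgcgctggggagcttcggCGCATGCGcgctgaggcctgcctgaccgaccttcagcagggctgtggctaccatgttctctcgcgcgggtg

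Each pure line was set against the other 3, so the 4 comparisons share libraries. To be called higher, a gene needed 5 normalised CPM or more in the line and, on the log2(value + 1) scale, a margin of 1 or more over the next line. To be called lower, it needed 5 or more in all other lines and the same margin below the lowest of them. In K562, 2 of 76 members were called higher, against 11.5% of all genes that could be called, and 0 were called lower, against 6.84%. NDUFA5 (chr7:123536997-123558255), an accessory subunit of the arm of complex I that faces the matrix, was at 349 in K562 (interval 343 to 356), while HL60 had 127, SUDHL4 149 and THP1 73.6, a log2 margin of 1.22 over the highest of them. NDUFV3, another accessory subunit of that arm, was at 89.5 in K562, against 29.98, 23.2 and 39.2 in HL60, SUDHL4 and THP1, a margin of 1.17. The NDUFA5 call held with 4 of 5 scalings and the NDUFV3 call with 3, and neither was made with scaling by the median of the members. K562 was the highest line for 29 of 73 subunit genes, ahead of HL60 (19), SUDHL4 (14) and THP1 (11). The share of all genes for which K562 was highest was not computed. With housekeeping scaling the counts were 28 for K562, 7 for HL60, 21 for SUDHL4 and 17 for THP1, and with scaling by the median of the members they were 20, 17, 18 and 18.

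In SUDHL4, 1 of 77 members was called higher, against 9.84% of all genes, and 2 of 76 were called lower, against 7.75%. NDUFS5 (chr1:39026318-39034636), an accessory subunit needed for complex I assembly, was at 81.2 in SUDHL4 (77.8 to 84.6), against 295 in HL60, 354 in K562 and 189 in THP1, a margin of −1.21. UQCRH was at 270.4 in SUDHL4, against 574, 853 and 626 in HL60, K562 and THP1, a margin of −1.08. The NDUFS5 call held with all 5 scalings, the UQCRH call with the deposited one only. NDUFA12, an accessory subunit of complex I, was at 213 in SUDHL4 against 109, 96.9 and 60.1, and passed the rule with 4 of 5 scalings but not as deposited, where its margin was 0.96.

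In THP1, 0 of 76 members were called higher, against 10% of all genes, and 2 of 76 were called lower, against 6.99%. ATP5F1B, given above, lay 1.05 log2 units below the lowest of the others, a call made with the deposited scaling only. NDUFA9, an accessory subunit near the ubiquinone site, was at 5.82 in THP1 (5.02 to 6.71, from 190 reads), against 24.5, 16.5 and 25.8 in HL60, K562 and SUDHL4. That call held with all 5 scalings, but 67.9% of the coding sequence of NDUFA9 overlaps other genes on its strand, as described below. In HL60, 0 of 76 members were called higher, against 4.35%, and 1 of 76 was called lower, against 3.24%. This was UQCRB, at 133 in HL60 (128 to 137), against 289.6 in K562, 318 in SUDHL4 and 371 in THP1, a margin of −1.12 that held with all 5 scalings. With housekeeping scaling, which lowered HL60 values to 0.803 times the deposited ones, 5 of 76 members were called lower in HL60, against 6.34% of all genes, with NDUFB1, COX4I1, UQCRQ and COX6C joining UQCRB. As deposited, every count of members called in a line was a smaller share than that of all genes.

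As a group, the members moved little between lines. Set against the mean of the remaining lines, the median log2 difference over 77 members was 0.21 in K562, against 0.07 over all genes. It was 0.07 in HL60 (0.08 over all genes), −0.06 in SUDHL4 (−0.10) and −0.11 in THP1 (−0.16). The sign of the HL60, SUDHL4 and THP1 medians turned with the scaling, to −0.40, 0.16 and 0.10 with housekeeping genes, and the medians of all genes turned with them (−0.37, 0.11 and 0.06). For K562 the median was above 0 with 4 of 5 scalings and −0.02 with scaling by the median of the members, where 38 of 77 lay above 0, against 53 as deposited. The K562 members stood 0.15 above all genes with each of the 5 scalings. Scaling shifts members and all genes nearly alike, so this constancy is built in and is no check. By complex, the K562 median ran from 0.07 in complex I over 0.24 in IV, 0.34 in V and 0.46 in III to 0.62 in II. The complex I median turned to −0.06 with median-ratio scaling and to −0.16 with scaling by the median of the members, where that of complex IV was 0.0039.

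These differences moved with the base composition of the transcripts, least in SUDHL4. In K562, all 8 members with a GC content under 42% lay above the mean of the other lines, with a median of 0.40, against 0.35 over all genes of that GC content. Of the 12 members with 58% GC or more, 2 lay above it, with a median of −0.55, against −0.29 over all such genes. Across the 77 members the difference in K562 had a Spearman correlation of −0.42 with GC content and in HL60 a value of 0.30. The members come from the same libraries, and all 11565 genes gave −0.18 and 0.08. In SUDHL4 and THP1 the members gave −0.16 and 0.25, and all genes −0.14 and 0.23. What part base composition plays in the calls above was not tested.

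**Figure D3:**
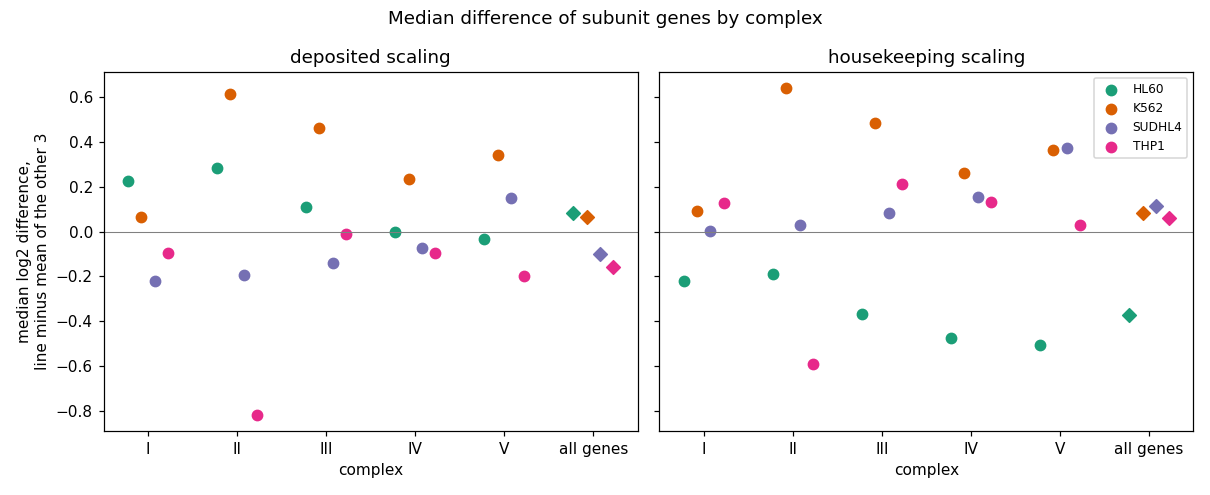
Median log2 difference of each pure line from the mean of the others over the subunit genes of each complex (circles) and over all genes (diamonds), as deposited (left) and with housekeeping scaling (right). The K562 medians stay above 0 in all 5 complexes under both scalings shown (that of complex I is −0.06 with median-ratio scaling and −0.16 with scaling by the median of the members), while those of HL60 drop below 0 in all 5 with housekeeping scaling.

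The share of each complex in the summed per-length level of the subunit genes does not depend on the scaling between libraries. Complex V took the largest share in every library, from 30.7% to 40.9%, and complex II the smallest, from 3.21% to 3.99%. The sums run over unequal numbers of genes, 36 in complex I, 4 in II, 8 in III, 12 in IV and 17 in V. Over the pure lines the median gene of complex II had 153 per kilobase, against 81.5 in I, 162 in III, 237 in IV and 273 in V. With merged-exon lengths complex V was largest in 8 of 10 libraries and complex I in 2, THP1 among them with 31.5% for complex I and 27.2% for complex V. THP1 had the lowest complex V share of the pure lines, 30.7%, against 37.6% in HL60, 36.6% in K562 and 40.9% in SUDHL4. It also had the highest complex IV share, 25.4%, against 19.6%, 20.2% and 21.3% in HL60, K562 and SUDHL4. The THP1 order in complexes IV and V stayed with merged-exon lengths, with no division by length, without the highest gene of each complex and without overlapped genes. Without the highest genes, ATP5F1B among them, complex V was at 34.0% in THP1, against 38.0%, 38.6% and 39.9%. Complex I took 26.6% in HL60, 23.9% in K562, 23.3% in SUDHL4 and 24.5% in THP1. With no division by length its share was highest in THP1 (23.9%), against 22.5% in HL60, while HL60 stayed highest with the other settings. Complex III took 15.9% in THP1 and 15.3% in K562, against 12.3% in HL60 and 11.1% in SUDHL4. Without the highest genes THP1 stayed highest in complex III, but K562 (9.68%) and SUDHL4 (9.65%) were nearly level, and HL60 was lowest (8.05%).

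**Figure D4:**
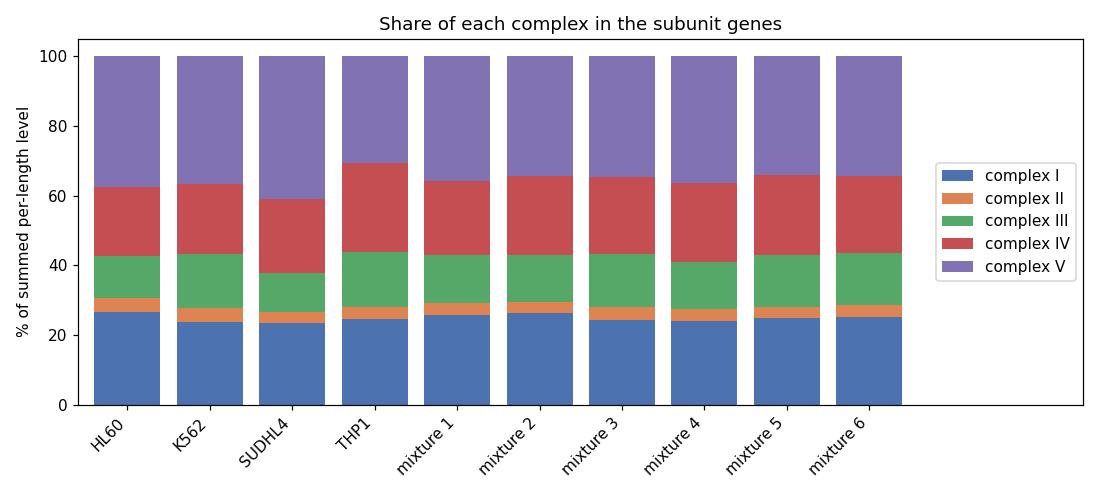
Percentage of the summed per-length level of the 77 subunit genes that belongs to each complex, 1 stacked bar per library. THP1 has the lowest complex V share of the 4 pure lines (30.7%) and the highest complex IV share (25.4%), and the mixtures lie between the pure lines in both.

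Of the isoforms known to be restricted to other tissues, 1 was measured. COX6B2, the testis form of a complex IV subunit, had 0 reads in HL60 and SUDHL4, 7 in K562 and 6 in THP1, and at most 7 in a mixture. The level of 3 reads, under which a level cannot be told from 0, was 0.117 normalised CPM in HL60 and 0.129 in SUDHL4. Its coding sequence overlaps another gene on its strand, as described below, so these counts cannot be read as low expression. Its common counterpart COX6B1 was at 229 in HL60, 275 in K562, 183 in SUDHL4 and 207 in THP1. Of the germ cell markers, 2 of 8 were measured and their summed level was at most 0.168 in a pure line. The muscle or lung forms COX4I2, COX6A2 and COX7A1 and the forms COX7B2 and COX8C were not analysed here. Of 8 striated muscle markers 3 were measured, DES reaching 30.4 in K562 and CKM 19.7 in THP1, while MB was at most 0.840.

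NDUFA4L2, a paralogue of NDUFA4 known as a target of the hypoxia-inducible factor HIF1A, was the member called higher in SUDHL4, with all 5 scalings. It was at 10.8 there (9.62 to 12.1, from 294 reads), against 0.955 in HL60, 0.607 in K562 and 2.28 in THP1, a margin of 1.85. Among mixtures it was highest in mixture 4 (7.13), to which SUDHL4 contributed most, 58.2% of RNA by the signature genes, and lowest in mixture 3 (0.748), where that share was 0%. It held 3.02% of the reads of the NDUFA4 pair in SUDHL4 (2.69% to 3.38%), against 0.657%, 0.212% and 1.34% in HL60, K562 and THP1. HIF1A itself was called higher in SUDHL4, at 144.5 against 27.7, 44.8 and 42.4, while EGLN3, another hypoxia-linked gene, was at 41.5 in K562 and had 0 reads in SUDHL4. Of the 9 listed hypoxia-linked genes that reached 5, no other was called in SUDHL4, and their median log2 difference there was 0.0068. UQCRHL, a copy of UQCRH without introns, took 5.25% to 6.23% of the reads of the pair in the pure lines. The 2 transcripts are 98.2% identical over 446 aligned bases, so the split of reads between them is uncertain.

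Some subunits of the common chain stood near 0 too. NDUFV2, a core subunit of complex I, had 4 to 23 reads in a library, or 0.138 to 0.664 normalised CPM in the pure lines, while the row of its pseudogene NDUFV2P1 stood at 2.34 to 5.60. NDUFA13 (0.117 to 0.692) and NDUFA7 (0.117 to 0.606), accessory subunits of the same complex, were as low. In GENCODE 29, part of the coding sequence of 15 subunit genes lies in another gene on the same strand, and 9 of these had under 30 per kilobase. Of the other 62, only NDUFV3 did, at 11.1. All 7 genes overlapped over 65% or more were under 30, with a median of 4.55, against 165 for the 62 without overlap. The 8 genes overlapped over less than 65% had a median of 156, and 2 of them, NDUFA11 and NDUFA13, were under 30. Of 17 overlapping genes 1, PTCD1, was measured here, at no more than 7.07. With counting rules and annotation unstated, the near-zero levels of NDUFV2, NDUFA13 and NDUFA7 and the low ones of NDUFA9, NDUFA11, NDUFB8, NDUFC2, UQCR11 and COX6B2 cannot be read as low expression.

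Genes that build or serve the chain but lie outside the rule were often lowest in THP1. Of 82 measured assembly factors, electron carriers and genes of mitochondrial transcription and replication, 79 reached 5 in a pure line. THP1 was the lowest line for 53 of these 79, and for 40 with housekeeping scaling. The share of all genes for which THP1 was lowest was not computed. Of the 78 that could be called lower in THP1, 10 were, against 6.99% of all genes. Of the 76 that could be called higher there, 1 was, against 10%. The median log2 difference in THP1 was −0.60, against −0.16 over all genes. With housekeeping scaling it was −0.39, against 0.06 over all genes, and 5 were called lower, against 3.6% of all genes. TFAM, which packages and transcribes mitochondrial DNA, was at 26.1 in THP1, against 117 in HL60, 240 in K562 and 131 in SUDHL4. TWNK, the mitochondrial helicase, was at 17.5 in THP1, against 110.2, 51.3 and 67.2 in HL60, K562 and SUDHL4. SSBP1, which coats single-stranded mitochondrial DNA, was at 123 in THP1, against 320, 415 and 321. CYCS, cytochrome c itself, was at 265 in THP1, against 673, 800 and 697.

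Assembly factors called lower in THP1 were ECSIT, NDUFAF2, NDUFAF5 and NDUFAF7 of complex I and COX15 and SCO1 of complex IV. NDUFAF2 was at 10.9 in THP1, against 30.7, 56.1 and 53.7 in HL60, K562 and SUDHL4. SCO1, a copper carrier for complex IV, was at 9.82 in THP1, against 27.2, 27.9 and 41.2. The gene called higher was SDHAF4 of complex II, at 13.5 in THP1 against 4.24, 4.33 and 6.22. CYC1, the cytochrome c1 of complex III, was highest in THP1 at 382, against 191, 254 and 212, without passing the rule. In HL60, 1 of 78 of these genes was called higher, against 4.35% of all genes, and 1 of 75 lower, against 3.24%. In K562, 3 of 78 were called higher, against 11.5%, and 1 of 75 lower, against 6.84%. In SUDHL4, 4 of 79 were called higher, against 9.84%, and 2 of 75 lower, against 7.75%. The medians were 0.33 in HL60, 0.15 in K562 and 0.08 in SUDHL4. SDHAF3, an assembly factor of complex II, was at 99.7 in K562 against 32.3, 8.46 and 6.07 in HL60, SUDHL4 and THP1. The median of the members in THP1 was −0.11, and the difference between the members and these outside genes was not tested.

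For each mixture, non-negative least squares on 400 signature genes gave the RNA share of each line, and the pure levels weighted by the coefficients gave a predicted level for each member. Observed and predicted levels were within 2-fold for nearly all members. In mixture 5, 1 of 76 members was off by 2-fold or more, against 0.686% of all genes. In the other mixtures 0 members were off, against 0.107% of all genes in mixture 1, 1.24% in mixture 2, 0.148% in mixture 3, 0.23% in mixture 4 and 0.24% in mixture 6. The gene off in mixture 5 was NDUFS7, at 91.8 observed against 42.7 predicted, a log2 departure of 1.09. In mixtures 1, 2 and 6 it lay above its prediction by 0.82, 0.95 and 0.62, while its departure was 0.09 in mixture 4 and −0.11 in mixture 3. Annotated antisense genes overlap its coding sequence, and whether counting used the strand is not stated.

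Below that threshold the members departed from their predictions together. In mixture 2, 75 of 76 lay above, with a median log2 departure of 0.42, and the ratio of their observed to predicted sum was 1.27. The medians were 0.27 in mixture 4 (74 of 77 above) and 0.24 in mixture 5 (72 of 76), while those of all genes lay between −0.02 and 0.05 over all 6 mixtures. In mixtures 1 and 6 the member medians were 0.07 and 0.10, and in mixture 3, where 18 of 76 lay above, −0.04. In each mixture the median over the 4 complex II genes was closer to 0 than that over the 33 complex I genes.

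The departures moved with transcript length over all genes. The Spearman correlation between departure and length over all genes was −0.62 in mixture 2, −0.52 in mixture 5, −0.42 in mixture 6, −0.38 in mixture 4, −0.37 in mixture 1 and 0.34 in mixture 3. Members are short, and 51 of the 77 have under 1000 bases. For transcripts under 1000 bases in mixture 2, the median departure was 0.47 over 51 members, against 0.38 over all 1094 genes. The window of 500 to 1500 bases holds 54 members and 2403 genes that reached 5 in a pure line. Medians in it were taken over the genes with 5 or more observed or predicted in each mixture. The member median stood above that of all genes there by 0.15 in mixture 2, 0.13 in mixture 4 and 0.07 in mixture 5. In mixtures 1 and 6 it stood above by 0.01 and 0.00. Without that window the same differences were 0.41, 0.23, 0.26, 0.08 and 0.11. The departures moved with GC content as well, with correlations over all genes of 0.45, 0.37, 0.47 and 0.33 in mixtures 1, 2, 5 and 6 and of −0.45 and −0.40 in mixtures 3 and 4. NDUFS7 has a GC content of 66.1%, and in mixture 5 the GC-rich ATP5F1D (68.1%) and NDUFB7 (65%) departed by 0.93 and 0.78. Which library was made with which kit is not stated, and its part in these departures was not tested.

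**Figure D5:**
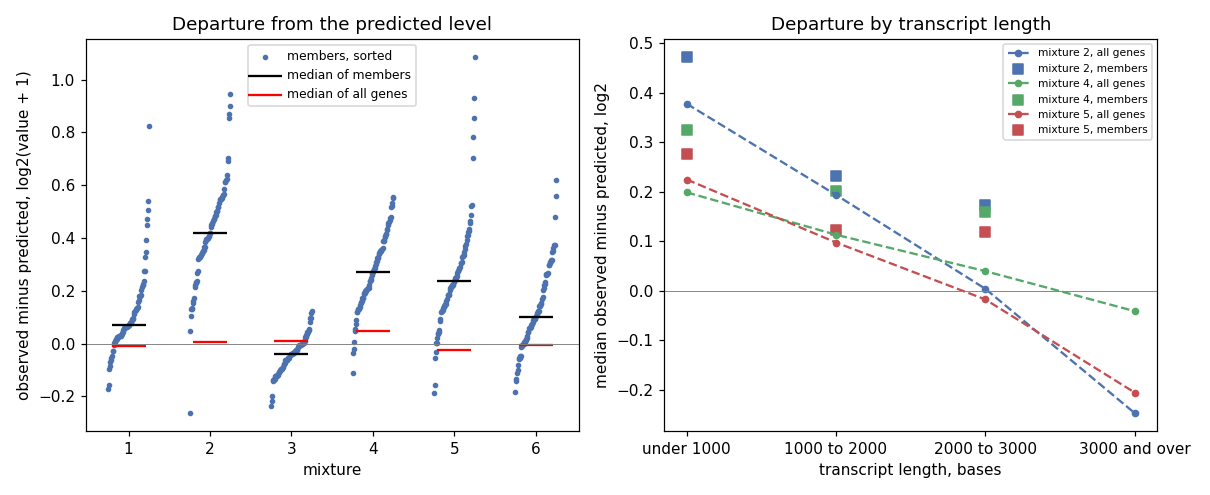
Left, observed minus predicted log2(value + 1) of each member in mixtures 1 to 6, sorted within a mixture, with medians of the members (black) and of all genes (red). Right, median departure by transcript length in mixtures 2, 4 and 5 for all genes (circles, dashed) and members (squares, groups of 7 or more); both decline with length between the bins under 1000 and from 1000 to 2000 bases, and the member median in mixture 2 is 0.47 in the shortest bin.

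Individual members still carried the lines' own levels into the mixtures. ATP5F1A, which differed most between lines among complex V genes, lay within −0.05 and 0.13 log2 units of its prediction in all 6 mixtures, at 789 to 1600.1 normalised CPM. ATP5MC3 lay within −0.10 and 0.33, at 450.0 to 684. NDUFA5 was highest in mixture 6 (228) and mixture 5 (203), the mixtures with the largest K562 share. NDUFS5 was lowest in mixture 4 (167), the mixture with the largest SUDHL4 share.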

How the data were processed

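Bulk RNA sequencing was analysed in 10 libraries, 1 per group, and groups were taken from the titles. Tools listed in the submitters' processing notes, with no role or setting, are featureCounts, HISAT2 and Cell Ranger ARC 2.0.0, and the build listed is hg19. Neither labels nor notes state a gene annotation. A single table of the authors' normalised signal values was deposited, on the scale of CPM, reads per 1000000. The columns do not sum to 1000000, and each deposited signal value equals a whole number of reads plus 0.5, times a factor per library, within 0.01, with 0 left at 0. The design had assumed plain CPM, and its rules were kept for this signal. A single read is worth 0.0409 to 0.0594 normalised CPM.

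From these values, log2(value + 1), calls, medians, shares and predictions were computed with Python 3.11.15, numpy 2.4.6, pandas 2.3.3 and scipy 1.17.1. Only the calls, the recovery of reads and the mixture shares were tested on simulated data. The simulated mixtures were weighted sums of the pure lines, without departures by length or GC content. Lengths, GC contents, overlaps and positions are from GENCODE 29 (GRCh38), matched by Ensembl ID; a length is the median over basic protein-coding transcripts. Signature genes, 100 per line, lay at least 4-fold above the other lines. Genes named are those called, the highest and lowest of each complex per length, the isoform sets, the SDH genes, core genes of complex I and called genes of the other lists; NDUFA12, COX7A2, ATP5F1C, ATP5F1D, ATP5IF1, ATP5ME, UQCRC1, UQCRFS1, NDUFA4, NDUFB7 and the alpha to beta ratio were chosen after their values were seen. A member that the rule names is not reported here by name. The members and lists were chosen with earlier results of these data known.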

Additional observations from a re-analysis of the deposited data

How the results depend on the processing

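Of 196 alternative values of 35 results, 125 stayed within the limits set (for a count, 1.5 times), 65 moved and 6 reversed. For the mixture results, the coefficients were fitted again after each rescaling and take up the scaling factors. Those alternatives could therefore hardly move. With a 4-fold rule, 0 members were called lower in HL60, higher in K562, higher or lower in SUDHL4 and lower in THP1. With a minimum level of 20, 0 were called higher in SUDHL4 and 1 lower in THP1, and the K562 median was 0.26. Shares of all genes were not computed with a 4-fold rule or a minimum level of 20. For the scalings, the share of all genes called stands in brackets. With total-read scaling, 3 were called lower in HL60 (4.28%), 2 higher in SUDHL4 (10.1%) and 1 lower in THP1 (6.01%). The medians with that scaling were −0.10 in HL60, reversed, 0.29 in K562 and −0.052 in THP1. With median-ratio scaling, 1 was called higher in K562 (10.3%). In SUDHL4 2 were called higher (10.1%) and 1 lower (7.58%), and in THP1 1 higher (11.5%) and 1 lower (4.49%). The medians with that scaling were −0.031 in HL60 and 0.0895 in THP1, both reversed, and 0.0868 in K562. With housekeeping scaling, 5 were called lower in HL60 (6.34%). In SUDHL4 2 were called higher (12.1%) and 1 lower (6.23%), and in THP1 1 higher (12%) and 1 lower (3.6%). The medians with that scaling were −0.40 in HL60, 0.16 in SUDHL4 and 0.10 in THP1, all reversed. With module-median scaling, added after seeing the data, 0 were called higher (9.4%) and 1 lower (8.88%) in K562. In SUDHL4 2 were called higher (11.5%) and 1 lower (6.86%), and in THP1 1 higher (12.3%) and 1 lower (3.85%).

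The median share of complexes I to V over the 10 libraries was 24.7%, 3.44%, 14.4%, 22.0% and 35.2%. It was 30.7%, 2.13%, 13.8%, 21.3% and 32.6% with merged-exon lengths, and 22.8%, 3.598%, 13.7%, 16.5% and 43.6% with no division by length. It was 27.7%, 2.69%, 9.82%, 23.0% and 36.7% without the highest gene of each complex. Without overlapped genes, added after seeing the data, it was 26.7%, 2.88%, 15.5%, 21.7% and 33.1%. Shares within isoform sets, at the median of the pure lines, were 1.81% per length and 1.01% without division by length for NDUFA4L2, 1.66% and 5.73% for UQCRHL, 23.5% and 16.7% for ATP5MC1, 34.1% and 36.4% for ATP5MC2, and 42.4% and 46.9% for ATP5MC3.

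With a 1.5-fold rule, 1 member was off its prediction in mixture 1, 12 in mixture 2, 5 in mixture 5 and 1 in mixture 6. The share of all genes off with that rule was not computed, so these counts have no background. The median departure of members minus that of all genes was 0.08, 0.41, −0.05, 0.23, 0.26 and 0.11 in mixtures 1 to 6, and among genes of 500 to 1500 bases, a window added after seeing the data, 0.0124, 0.15, −0.00103, 0.13, 0.0698 and 0.00123. Beyond what each alternative changes by construction, the cause was not tested. A pseudocount of 0.5, a minimum level of 1, 50 signature genes per line and coefficients rescaled to sum to 1 kept the results they were run on within those limits, though with the pseudocount of 0.5 the count called lower in SUDHL4 was 3, against 2. No paired analysis was possible because every group has 1 library, and no replicate could be left out for the same reason. Levels under 3 reads, which is 0.0955 to 0.139 normalised CPM, cannot be told from 0.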
